A study of Solanum lycopersicum with 29 samples.

Results

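MPK3 (Solyc06g005170), MPK1 (Solyc12g019460) and MPK2 (Solyc08g014420) are 3 mitogen-activated protein kinase (MAPK) genes of tomato, and their transcripts were followed here in developing anthers of 4 lines at 2 temperatures. The genes were taken by these identifiers with the version suffix removed, and they are 3 of the 35092 genes in the deposited tables. All 3 passed the filter on low counts, which left 21637 genes to test. By their identifiers they lie on chromosomes 6 (MPK3), 12 (MPK1) and 8 (MPK2).

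MAPKs are the last kinases of a relay in which a MAP kinase kinase kinase phosphorylates a MAP kinase kinase, which in turn phosphorylates the MAPK, and the MAPK then acts on transcription factors and enzymes. In Arabidopsis, MPK3 and MPK6 share substrates and are partly interchangeable. There they act downstream of ERECTA-type receptor kinases when the anther lobes and their cell layers form, and they phosphorylate pollen WRKY factors and ethylene-forming ACC synthases. Tomato MPK1 and MPK2, both annotated as counterparts of Arabidopsis MPK6, are known from the wound response to the peptide systemin.

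Anthers at the polarized microspore stage were sampled from cv. Micro-Tom plants of 4 lines. 35S::nahG expresses a bacterial salicylate hydroxylase and is low in salicylic acid (SA), Never ripe carries a mutated ethylene receptor and is insensitive to ethylene, 35S::asCCD7 expresses an antisense copy of the strigolactone synthesis gene CCD7, and WT is the wild type. The 35S promoter is not specific to the anther, so neither transgene was restricted to the anther. Its activity in the separate cell types of the anther is not given in the sources used here. The 35S::nahG construct had been brought into Micro-Tom by introgression, and how many transformation events stand behind each transgenic line is not given in the sources used here. Plants of each line either received long-term mild heat (LTMH, 34 °C by day and 28 °C by night) from the start of flowering or stayed at control temperature (CT, 25 °C by day and 19 °C by night), and anthers were taken after 8 days. Each library came from a pool of 6 anthers. There were 3 libraries of 35S::nahG, Never ripe and WT in LTMH, 4 of 35S::asCCD7 in LTMH, and 4 of each line in CT. The study's methods call the pools of a group biological replicates, and neither they nor the labels say whether the pools came from separate plants, so the p-values measure only the spread between these pools.

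The 29 libraries held 32273189 to 42353956 counted reads (median 34474482). MPK3 had 309 to 6631 reads in a library, MPK1 954 to 1717 and MPK2 666 to 1293. Levels are given as CPM (reads per 1000000 counted reads, with TMM-scaled totals). A differentially expressed gene (DEG) had an edgeR adjusted p below 0.05 and a fold change of at least 1.5. Over all tested genes, the mean correlation of a library with the others of its group ran from 0.970 (Never ripe LTMH replicate 4) to 0.993.

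MPK3 was the only one of the 3 kinases that was a DEG between lines. It averaged 73.7 ± 9.98 CPM (SD, n = 3) in 35S::nahG LTMH and 18.8 ± 15.1 CPM (SD, n = 4) in 35S::nahG CT. In Never ripe it averaged 97.9 ± 61.0 CPM (SD, n = 3) in LTMH and 169.8 ± 12.7 CPM (SD, n = 4) in CT. Both levels were above those of WT, and so were those of 35S::asCCD7. In 35S::asCCD7 the means were 67.2 ± 27.1 CPM in LTMH and 142.5 ± 50.7 CPM in CT (SD, n = 4 each). WT had the least in LTMH, at 14.1 ± 2.84 CPM (SD, n = 3), and 22.1 ± 2.81 CPM in CT (SD, n = 4). Ranked by mean, the groups thus fell into an upper set of 5 (Never ripe CT, 35S::asCCD7 CT, Never ripe LTMH, 35S::nahG LTMH, 35S::asCCD7 LTMH) and a lower set of 3 (WT CT, 35S::nahG CT, WT LTMH). Neighbours within each set overlapped in their libraries, and the step between 35S::asCCD7 LTMH and WT CT was the only one without overlap. The lower set was not wholly clear of the upper one, since 35S::nahG CT replicate 2, at 41.4 CPM, exceeded Never ripe LTMH replicate 4 and 35S::asCCD7 LTMH replicate 3.

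**Figure D1:**
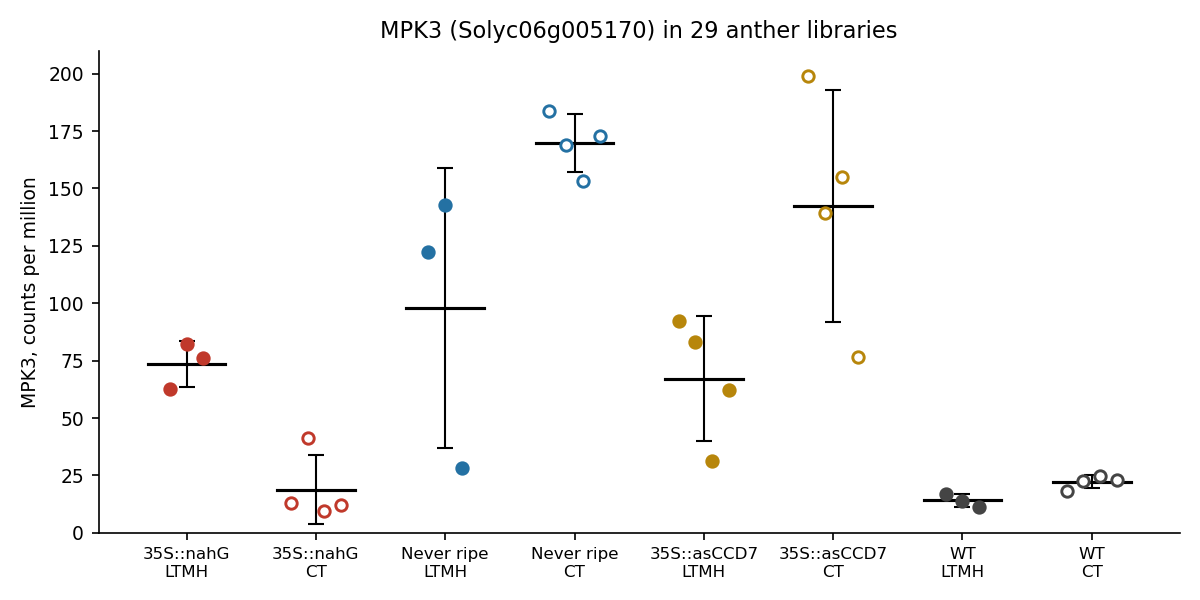
MPK3 level in CPM (vertical axis) in each of the 29 libraries (points, filled for LTMH and open for CT), with the mean (long bar) and SD (whiskers) of each of the 8 groups. The 3 35S::nahG LTMH libraries sit between 62.7 and 82.2 CPM and above all 4 35S::nahG CT libraries, whereas the 7 WT libraries hold at most 24.9 CPM.

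The first question was how MPK3 responded to LTMH within each line. In 35S::nahG it rose 3.91-fold, and in WT it fell 1.58-fold. The 35S::nahG libraries had 62.7, 82.2 and 76.1 CPM in LTMH (replicates 2, 3 and 4), against 12.8, 41.4, 9.34 and 11.9 CPM in CT (replicates 1 to 4). All LTMH libraries were above all CT libraries, although CT replicate 2 stood far above the other CT libraries. The log2 fold change was 1.97 ± 0.445 (SE, edgeR adjusted p = 0.00513), in a comparison in which 27.5% of all tested genes were DEGs. Without CT replicate 2 the log2 fold change was 2.70 (edgeR adjusted p = 7.19e-07).

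In WT, MPK3 had 17.0, 13.9 and 11.4 CPM in LTMH, against 18.2, 22.4, 24.9 and 23.1 CPM in CT. The groups did not overlap, and the lowest CT library was close to the highest LTMH library. The log2 fold change was −0.66 ± 0.149 (SE, edgeR adjusted p = 0.0103), with 17.2% of tested genes called as DEGs. The call was lost when all 8 groups shared one estimate of the spread (log2 fold change −0.65, adjusted p = 0.2995).

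In Never ripe, MPK3 had 122.5, 142.7 and 28.4 CPM in LTMH, against 183.9, 169.1, 153.2 and 172.9 CPM in CT. All LTMH libraries were below all CT libraries, but replicate 4 was far below the other LTMH libraries. The difference did not pass the test (log2 fold change −0.79 ± 0.456 SE, edgeR adjusted p = 0.256, 8.43% of tested genes called). Without LTMH replicate 4 it was smaller and passed (log2 fold change −0.35, edgeR adjusted p = 0.0316).

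In 35S::asCCD7, MPK3 had 92.3, 83.0, 31.1 and 62.3 CPM in LTMH, against 198.8, 139.4, 155.1 and 76.5 CPM in CT. The groups overlapped through CT replicate 4, and the log2 fold change of −1.09 ± 0.3545 (SE) did not pass (edgeR adjusted p = 0.0755, 7.17% of tested genes called). DESeq2 (log2 fold change −1.10, adjusted p = 0.00935), the fit with all 8 groups (−1.08, adjusted p = 0.0494) and the fit without CT replicate 4 (−1.30, adjusted p = 0.0336) called it lower in LTMH.

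The LTMH responses of MPK3 were then compared between lines. The response of 35S::nahG exceeded that of WT by 2.62 ± 0.552 on the log2 scale (SE, edgeR interaction, adjusted p = 0.00609), in a test that called 10.1% of genes. It passed in all 22 alternative fits, with adjusted p between 8.47e-06 and 0.0186, and reached 3.36 without 35S::nahG CT replicate 2. For Never ripe the difference from the WT response was −0.14 ± 0.521 (SE, adjusted p = 0.905, 5.81% of genes called). For 35S::asCCD7 it was −0.43 ± 0.449 (SE, adjusted p = 0.628, 0.319% of genes called).

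Line by line in LTMH, MPK3 was higher in each of the other lines than in WT. The 10 libraries of 35S::nahG, Never ripe and 35S::asCCD7 had 28.4 to 142.7 CPM, against 11.4 to 17.0 CPM in the 3 WT libraries, and no library of these lines reached down to WT. The difference was 5.25-fold for 35S::nahG (log2 fold change 2.39 ± 0.153 SE, edgeR adjusted p = 9.74e-05, 9.41% of tested genes called). It was 6.93-fold for Never ripe (2.79 ± 0.573 SE, adjusted p = 0.0318, 4.34% called) and 4.85-fold for 35S::asCCD7 (2.28 ± 0.349 SE, adjusted p = 0.00966, 5.53% called). These 3 comparisons share the WT libraries and are not independent of one another. The call for Never ripe was lost in 8 of 14 alternative fits, but not without its low replicate 4 (log2 fold change 3.23, adjusted p = 0.000363), and the call for 35S::asCCD7 was lost without WT replicate 3 (adjusted p = 0.0555) or WT replicate 4 (adjusted p = 0.0545).

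Within LTMH, 35S::nahG was not shown to differ from the other lines in MPK3. The log2 fold change was −0.41 ± 0.524 (SE, edgeR adjusted p = 0.767, 0.823% of tested genes called) against Never ripe, and 0.13 ± 0.312 (SE, adjusted p = 0.857, 1.07% called) against 35S::asCCD7. Without Never ripe LTMH replicate 4, MPK3 was lower in 35S::nahG than in Never ripe (log2 fold change −0.85, edgeR adjusted p = 0.00973).

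In CT the lines parted. MPK3 was 7.71-fold higher in Never ripe than in WT (log2 fold change 2.95 ± 0.0991 SE, edgeR adjusted p = 2.44e-07, 10.5% of tested genes called) and 6.39-fold higher in 35S::asCCD7 than in WT (2.68 ± 0.265 SE, adjusted p = 0.000657, 3.81% called). These libraries, at 76.5 to 198.8 CPM, were all above the 18.2 to 24.9 CPM of WT. For 35S::nahG the log2 fold change from WT was −0.22 ± 0.414 (SE, adjusted p = 0.717, 16.4% called). Replicate 2 lay above all WT libraries and the other 3 below all of them. Without replicate 2, the CT level of MPK3 in 35S::nahG was below that of WT (11.3 ± 1.79 CPM over 3 libraries, log2 fold change −0.96, edgeR adjusted p = 0.001015).

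**Figure D2:**
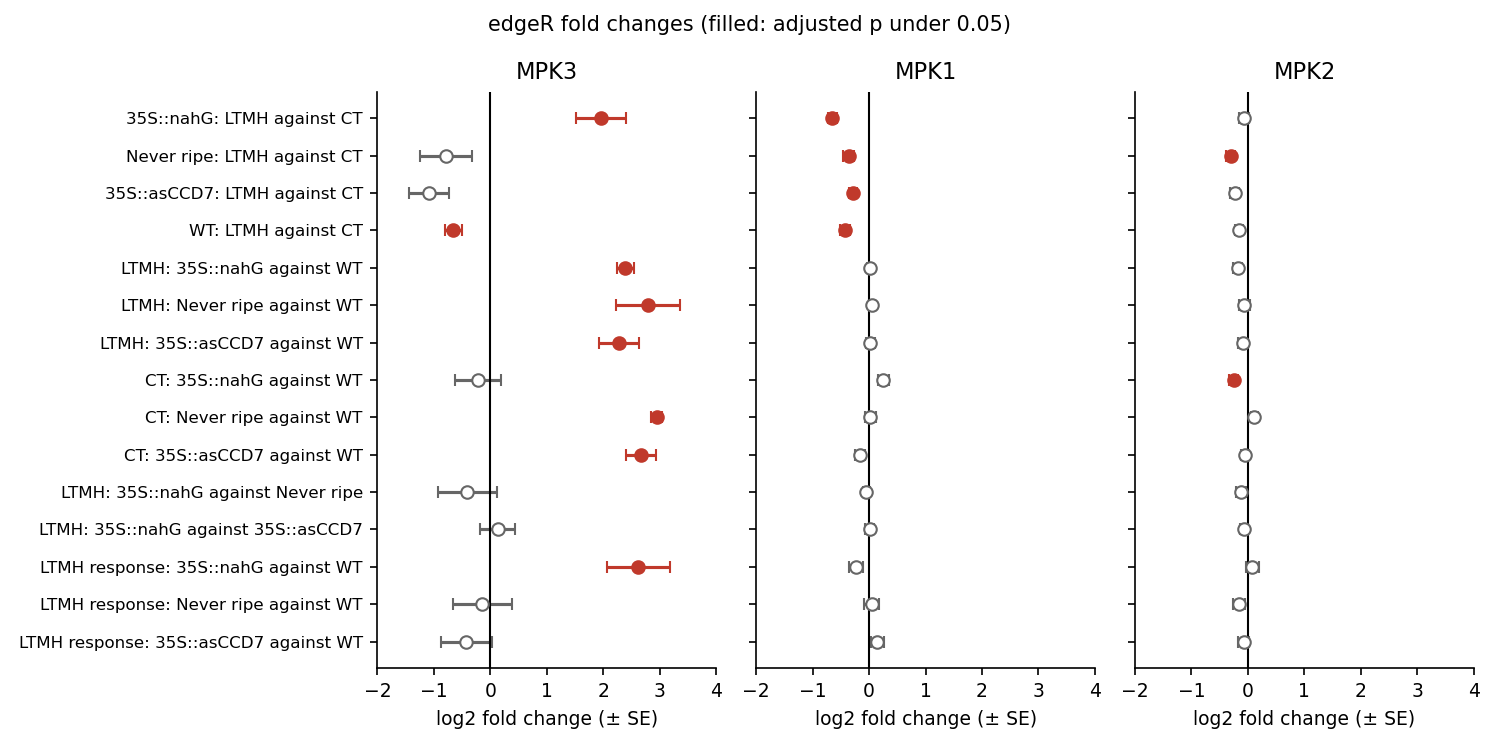
edgeR log2 fold changes with SE (horizontal axes) of MPK3, MPK1 and MPK2 in the 12 pairwise comparisons and the 3 differences between LTMH responses (rows), filled where the adjusted p was under 0.05. MPK3 spans −1.09 to 2.95, whereas MPK1 stays between −0.65 and 0.25 and MPK2 between −0.31 and 0.11.

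MPK1 fell in LTMH in all 4 lines and passed in no comparison between lines. Its 13 LTMH libraries held 27.9 to 32.3 CPM, below all 16 CT libraries at 34.2 to 51.9 CPM. 35S::nahG had 31.2, 28.99 and 29.5 CPM in LTMH, against 49.4, 42.3, 51.9 and 45.1 CPM in CT. This was a DEG, 1.57-fold lower in LTMH (log2 fold change −0.65 ± 0.0769 SE, edgeR adjusted p = 0.000107). WT had 28.9, 29.8 and 30.8 CPM in LTMH, against 37.1, 35.3, 43.6 and 43.5 CPM in CT (log2 fold change −0.42 ± 0.0884 SE, edgeR adjusted p = 0.0071). Counting genes by adjusted p alone, which is the rule these smaller changes passed, 51.3% of tested genes changed in 35S::nahG and 35.2% in WT.

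Never ripe had 31.2, 32.3 and 29.4 CPM of MPK1 in LTMH, against 46.95, 38.75, 36.0 and 38.8 CPM in CT (log2 fold change −0.36 ± 0.0920 SE, edgeR adjusted p = 0.0319, 18.7% of tested genes by adjusted p alone). 35S::asCCD7 had 29.3, 27.9, 29.7 and 31.4 CPM in LTMH, against 38.1, 34.2, 35.9 and 35.6 CPM in CT (log2 fold change −0.28 ± 0.0720 SE, edgeR adjusted p = 0.0361, 12.2% of tested genes). Both changes kept their sign in the alternative fits but often missed the threshold, with adjusted p up to 0.107 in Never ripe and 0.1004 in 35S::asCCD7, while those of 35S::nahG and WT passed in all 15 alternatives. None of the 8 comparisons between lines passed for MPK1 (1 had an unadjusted edgeR p under 0.05), with log2 fold changes from −0.16 (35S::asCCD7 against WT in CT) to 0.25 (35S::nahG against WT in CT). The last of these had an edgeR adjusted p of 0.0603 (SE 0.0925), and passed without 35S::nahG CT replicate 2 (log2 fold change 0.29, adjusted p = 0.0390). The difference of the LTMH response from that of WT did not pass in any line, at −0.23 ± 0.123 in 35S::nahG (adjusted p = 0.215), 0.045 ± 0.133 in Never ripe (adjusted p = 0.880) and 0.15 ± 0.109 in 35S::asCCD7 (SE, edgeR, adjusted p = 0.477).

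MPK2 varied least. Its group means ran from 22.3 ± 1.38 CPM in 35S::nahG LTMH to 30.3 ± 2.22 CPM in Never ripe CT, and neighbours in the order of means overlapped throughout. In Never ripe it had 25.2, 26.2 and 21.8 CPM in LTMH, against 31.4, 33.0, 28.5 and 28.5 CPM in CT, without overlap. This difference passed on adjusted p (log2 fold change −0.31 ± 0.0847 SE, edgeR adjusted p = 0.0422) but was under 1.5-fold, and it passed in 8 of 15 alternative fits only. It missed the threshold without LTMH replicate 1 or 4 or without any one of the 4 CT libraries (edgeR adjusted p up to 0.0879) and with a replicate block (adjusted p = 0.1257). 35S::nahG had 23.8, 25.1, 25.4 and 20.2 CPM in CT, against 27.8, 28.9, 26.9 and 29.7 CPM in WT CT, again without overlap. Here too the log2 fold change of −0.25 ± 0.0790 (SE, edgeR adjusted p = 0.0339) was under 1.5-fold, and 35% of tested genes passed on adjusted p alone. It passed in 10 of 16 alternative fits, and missed the threshold without 35S::nahG CT replicate 1 or 4 or WT CT replicate 1, 2 or 4 (edgeR adjusted p up to 0.0798) and with a replicate block (adjusted p = 0.0625). In 35S::nahG, 35S::asCCD7 and WT the LTMH change of MPK2 did not pass (log2 fold changes −0.08, −0.24 and −0.16). 35S::asCCD7 CT replicate 1, at 24.5 CPM, was low among 28.3 to 28.8 CPM in the other libraries of its group.

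**Figure D3:**
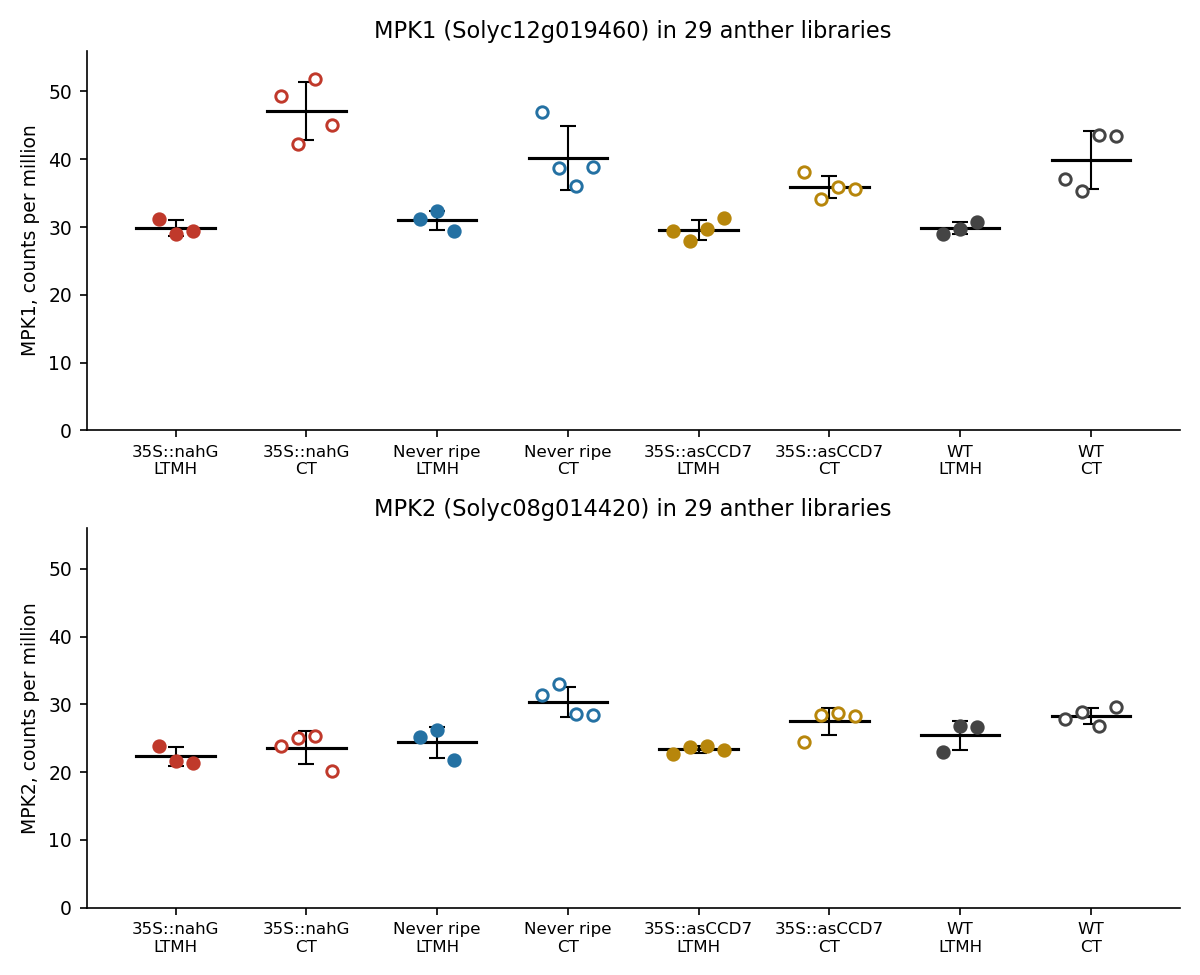
MPK1 (upper panel) and MPK2 (lower panel) in CPM (vertical axes, from 0) in each of the 29 libraries, with the mean and SD of each group, filled points for LTMH and open points for CT. The 13 LTMH libraries of MPK1 lie at 27.9 to 32.3 CPM, below every CT library, while the MPK2 groups overlap with their neighbours.

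The next locus number after MPK2, Solyc08g014425, is annotated as a homolog of the tobacco MAPK NTF4, as MPK2 is. Reads from such near copies may have been divided between them in counting, so the values of both are uncertain to that extent. Its reads were 0.227 to 0.416 of those of MPK2 in a library. It fell in LTMH in WT (6.98, 6.57 and 6.03 CPM in LTMH, against 7.95, 8.65, 9.53 and 9.10 CPM in CT, log2 fold change −0.44 ± 0.103 SE, edgeR adjusted p = 0.0117). It passed in no other comparison, and the count ratio to MPK2 was accordingly lowest in WT LTMH, at 0.259 on average.

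To compare the 3 genes with one another, the deposited FPKM, which are scaled by gene length, were used. In the lines with high MPK3 it made up most of the summed FPKM of the 3 kinases. Its share was 58.3% ± 4.52 in 35S::nahG LTMH (SD, n = 3), against 19.5% ± 12.3 in 35S::nahG CT (SD, n = 4). In Never ripe it was 58.4% ± 19.8 in LTMH (SD, n = 3) and 70.7% ± 0.880 in CT (SD, n = 4). 35S::asCCD7 had 54.0% ± 12.3 in LTMH and 67.5% ± 9.14 in CT (SD, n = 4 each). In WT the share was 20.4% ± 4.09 in LTMH (SD, n = 3) and 24.4% ± 1.89 in CT (SD, n = 4), and MPK1 was the most abundant of the 3 by FPKM, at 47.1% and 47.9%. The ratio of MPK3 to MPK1 in FPKM was accordingly 2.27 ± 0.388 in 35S::nahG LTMH, against 0.386 ± 0.343 in 35S::nahG CT. In WT this ratio was 0.435 ± 0.101 in LTMH, against 0.5104 ± 0.0548 in CT. MPK1 exceeded MPK2 by FPKM in each group, on average most in 35S::nahG CT (2.48-fold) and least in WT LTMH (1.45-fold).

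**Figure D4:**
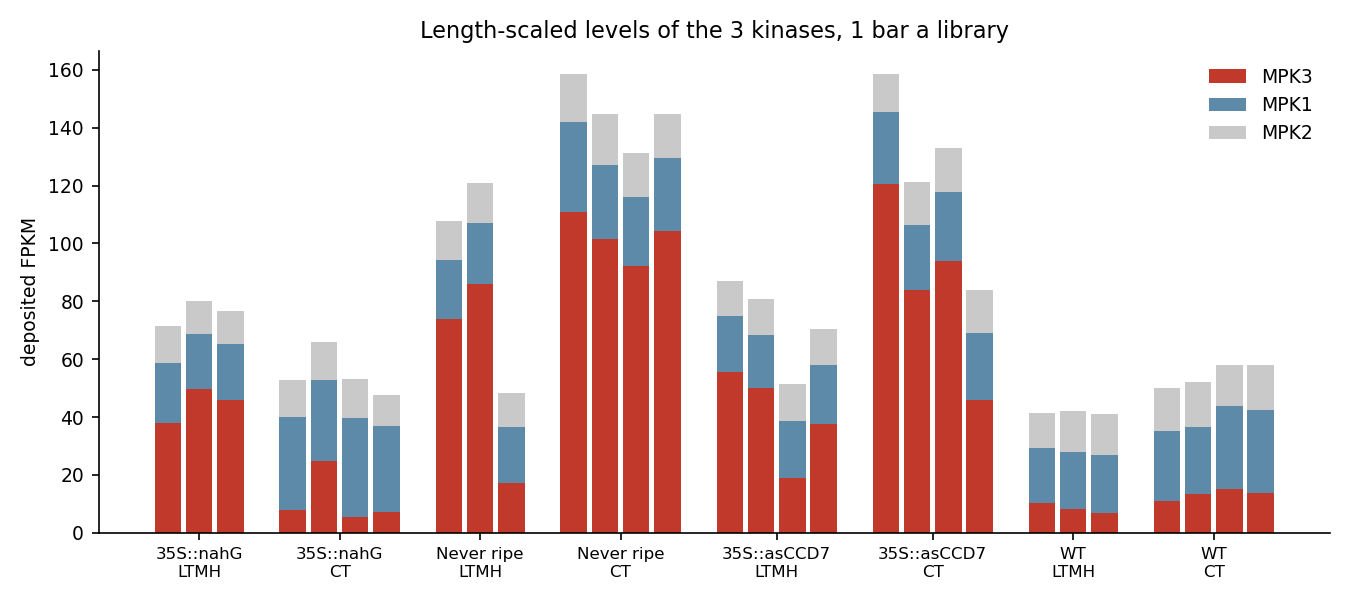
Deposited FPKM (vertical axis, from 0) of MPK3, MPK1 and MPK2, stacked, with 1 bar for each of the 29 libraries in 8 groups. The MPK3 part dominates the bars of Never ripe CT (70.7% on average) and is a minor part in WT CT (24.4%), while MPK1 stays at 18.3 to 34.0 FPKM and MPK2 at 10.8 to 17.5 FPKM.

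Across the 29 libraries the levels of the 3 kinases were only loosely related. Pearson's r of log2(CPM + 1) was −0.188 between MPK3 and MPK1, 0.294 between MPK3 and MPK2 and 0.360 between MPK1 and MPK2. Of the deviations from the group means, r was −0.0524, 0.171 and 0.214 for the same pairs. These are descriptions over libraries that share lines and temperatures.

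Other genes of the relay were taken from the study's gene-set annotation, which gave 9 besides the 3 kinases: 6 further MAPKs, 2 MAP kinase kinases and 1 MAP kinase kinase kinase, all tested. No MAPK among the 6 was a DEG in any of the 15 tests. In these tests 0.319% to 27.5% of all tested genes were DEGs, so for only 6 genes this count says little. From 0 (35S::asCCD7 against WT in CT) to 5 of the 6 (LTMH against CT in WT) had an unadjusted edgeR p under 0.05. By adjusted p alone, 3 of the 6 fell in LTMH in 35S::nahG (25.4% of all tested genes fell by this rule) and 2 of 6 in Never ripe (8.92%). In 35S::asCCD7 1 of 6 fell (5.25%) and in WT 4 of 6 (17.9%). Their median log2 fold change in LTMH was −0.25 in 35S::nahG, −0.13 in Never ripe, −0.28 in 35S::asCCD7 and −0.29 in WT, beside medians within 0.02 of 0 over all tested genes. Solyc12g040680, annotated as MPK9-like and named here after its values were seen, fell in each of the 4 lines, as MPK1 did (log2 fold changes −0.43 in 35S::nahG, −0.33 in Never ripe, −0.38 in 35S::asCCD7 and −0.33 in WT). This was not particular to it. The means of Solyc05g049970, Solyc06g068990, Solyc04g080730 and Solyc08g014425 were also lower in LTMH in each line. That of Solyc01g094960 was not, with 14.0 CPM in WT LTMH, against 13.7 CPM in WT CT.

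The relay gene that moved most was Solyc03g097920, annotated as MAP kinase kinase 9, whose Arabidopsis namesake phosphorylates MPK3 and MPK6. It was the only DEG among the 9, in tests that called 0.319% to 27.5% of all tested genes as DEGs. It rose in LTMH in WT (15.1, 15.0 and 22.7 CPM in LTMH, against 4.60, 3.23, 4.40 and 4.66 CPM in CT, log2 fold change 2.05 ± 0.186 SE, edgeR adjusted p = 0.000166). It also rose in 35S::nahG (log2 fold change 1.28 ± 0.183 SE, adjusted p = 0.000365) and in 35S::asCCD7 (0.99 ± 0.250 SE, adjusted p = 0.0352).

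In Never ripe Solyc03g097920 had 10.6, 7.42 and 21.3 CPM in LTMH, against 17.8, 19.3, 14.7 and 18.8 CPM in CT. It was thus already at 4.20 times the WT level in CT (log2 fold change 2.07 ± 0.133 SE, edgeR adjusted p = 5.73e-06), and its LTMH response differed from that of WT by −2.48 ± 0.410 (SE, adjusted p = 0.00172). In LTMH it was lower than in WT in 35S::nahG (log2 fold change −0.83 ± 0.175 SE, adjusted p = 0.0133) and in 35S::asCCD7 (−1.37 ± 0.278 SE, adjusted p = 0.0259). The same library, Never ripe LTMH replicate 4, held the least MPK3 and the most Solyc03g097920 of its group, and so did 35S::asCCD7 LTMH replicate 3 in its group (31.1 CPM of MPK3 and 10.4 CPM of Solyc03g097920). 35S::nahG LTMH replicate 2 (62.7 and 11.05 CPM) and WT LTMH replicate 4 (11.4 and 22.7 CPM) did so too. The CT groups were mixed. 35S::asCCD7 CT replicate 4 (76.5 and 2.85 CPM) and Never ripe CT replicate 3 (153.2 and 14.7 CPM) held the least of both genes. 35S::nahG CT replicate 2 held the most MPK3 and the least Solyc03g097920 (41.4 and 2.72 CPM), and WT CT showed neither pattern. A link between the genes was not tested.

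The genes nearest to MPK3 also differed between the lines and WT. Among the 20 nearest tested genes in gene order, 10 on each side, Solyc06g005050 to Solyc06g005290, 8 were DEGs in 35S::nahG against WT in LTMH (40.0%, beside 9.41% of all tested genes) and 7 in CT (35.0%, beside 16.4%). For Never ripe 5 of the 20 were DEGs in LTMH (25.0%, beside 4.34%) and 8 in CT (40.0%, beside 10.5%). For 35S::asCCD7 there were 8 in LTMH and 8 in CT (40.0% each, beside 5.53% and 3.81%). These 6 comparisons share WT libraries at each temperature, and the genes are neighbours that were not tested as a set. Between 35S::nahG and Never ripe or 35S::asCCD7 in LTMH, none of the 20 was a DEG by edgeR (4 and 1 had an unadjusted p under 0.05). Of all tested genes only 0.823% and 1.07% were DEGs there, so this count does not show that the lines were alike. None of the 20 was a DEG in the 3 tests of a different LTMH response (5 for 35S::nahG, 6 for Never ripe and 2 for 35S::asCCD7 by unadjusted p). In these tests 10.1%, 5.81% and 0.319% of all tested genes were DEGs. In the LTMH against CT comparisons within lines, 1 to 3 of the 20 were DEGs. There were 3 in 35S::nahG (beside 27.5% of all tested genes) and 1 in Never ripe (beside 8.43%). In 35S::asCCD7 there were 2 (beside 7.17%) and in WT 2 (beside 17.2%). Only in 35S::asCCD7 was the share among the neighbours above that of all tested genes.

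In each of these 6 comparisons more of the neighbouring DEGs were lower than in WT (4 to 7) than higher (1 to 3). Solyc06g005050 had 1.20 ± 0.233 CPM in 35S::nahG LTMH, 1.52 ± 0.0988 CPM in Never ripe LTMH and 1.31 ± 0.134 CPM in 35S::asCCD7 LTMH, against 9.998 ± 1.385 CPM in WT LTMH. In CT it had 1.20 ± 0.326 CPM in 35S::nahG, 1.46 ± 0.355 CPM in Never ripe and 1.64 ± 0.302 CPM in 35S::asCCD7, against 10.3 ± 0.757 CPM in WT. The level was therefore set apart in WT at both temperatures. Solyc06g005270 had at most 0.118 CPM in any library of the other lines, which is about the level of 3 reads (0.0765 to 0.0963 CPM), against 0.910 to 1.37 CPM in WT LTMH and 1.89 to 2.90 CPM in WT CT. One neighbour was a DEG with a higher level than in WT in all 6 comparisons (log2 fold changes 0.64 to 1.00), Solyc06g005230, annotated as the receptor-like kinase HERK 1, which in LTMH had 58.1 ± 3.87 CPM in 35S::nahG, against 35.2 ± 3.27 CPM in WT (edgeR adjusted p = 0.000934, log2 fold change 0.73 ± 0.0789 SE). Neither of the genes adjacent to MPK3, Solyc06g005160 and Solyc06g005180, was a DEG in these 6 comparisons. Solyc06g005180 had group means of only 0.299 to 0.466 CPM, so the missing call says little for that gene. Line and any chromosome segment that goes with it cannot be told apart in this design.

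**Figure D5:**
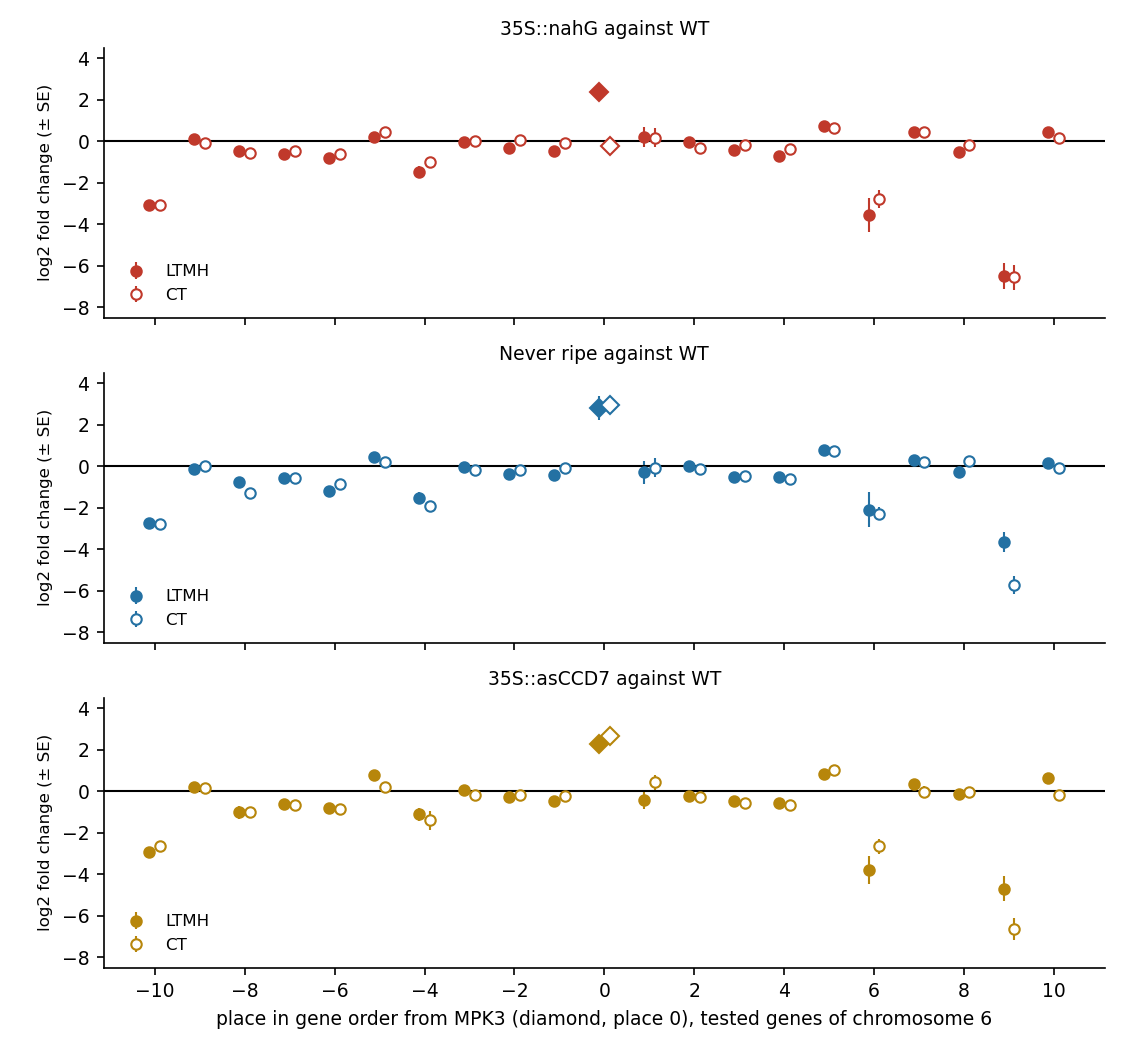
edgeR log2 fold change with SE (vertical axes) of each line against WT, in LTMH (filled) and CT (open), for MPK3 (diamonds at place 0) and the 20 nearest tested genes by place in gene order (horizontal axis). MPK3 is at −0.22 in 35S::nahG CT and at 2.28 to 2.95 elsewhere, and the genes at places 6 and 9 have few reads outside WT, so that their fitted values are no measured fold.

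The same counts were made around MPK2 and MPK1. Of the 20 tested neighbours of MPK2, none was a DEG in any line against WT except 6 in 35S::nahG in CT (30%, beside 16.4% of all tested genes). In the comparisons without a DEG, 2 to 8 of them had an unadjusted edgeR p under 0.05. Around MPK1, 2 of 20 were DEGs in each line against WT in LTMH (10%, beside 9.41%, 4.34% and 5.53% for 35S::nahG, Never ripe and 35S::asCCD7). In CT the counts around MPK1 were 5 in 35S::nahG (25%, beside 16.4%), 1 in Never ripe (5%, beside 10.5%) and 0 in 35S::asCCD7 (beside 3.81%), where 5 had an unadjusted edgeR p under 0.05. In WT 8 of the 20 neighbours of MPK1 were DEGs for LTMH against CT (40.0%, beside 17.2%), 6 of them lower.

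Among 18242 genes with a mean of at least 1 CPM, those most like MPK3 over the 29 libraries by Pearson's r of log2(CPM + 1) were Solyc03g044797 (r = 0.939), Solyc12g005470 (0.918), Solyc01g080410 (0.851), Solyc01g079400 (0.847) and Solyc11g012660 (0.838). Of Solyc03g044797 there were 12.2 ± 1.73 CPM in 35S::nahG LTMH, against 4.38 ± 3.95 CPM in 35S::nahG CT. In CT it had 29.2 ± 2.19 CPM in Never ripe and 30.6 ± 7.27 CPM in 35S::asCCD7, against 7.75 ± 3.82 CPM in WT. As for MPK3, all Never ripe and 35S::asCCD7 libraries in CT were above all WT libraries in CT. The libraries share lines, temperatures and composition, and these r values are descriptions.

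A second view removed the 8 group means and asked which genes deviated with MPK3 from library to library within groups. The highest r was that of Solyc02g086920 (0.982), annotated as an MtN3 family protein, the family of the SWEET sugar transporters. It was followed by Solyc06g073760 (0.976), Solyc11g073200 (0.972), Solyc11g009100 (0.971) and Solyc06g066680 (0.970). Solyc02g086920 had 13.8, 44.0, 8.19 and 14.4 CPM in 35S::nahG CT replicates 1 to 4 and 89.3, 102.4 and 21.9 CPM in Never ripe LTMH replicates 1, 3 and 4. The libraries in which it was high or low in these groups were the same ones as for MPK3.

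Although MPK3 and Solyc02g086920 deviated together within groups, their ratio lay apart in WT. This ratio was computed after both genes' values were seen and is given without a test. It was 1.35 ± 0.0513 in 35S::nahG LTMH (reads of MPK3 over reads of Solyc02g086920, SD, n = 3), against 0.171 ± 0.0102 in WT LTMH (SD, n = 3). In CT it was 0.958 ± 0.132 in 35S::nahG, against 0.193 ± 0.0194 in WT (SD, n = 4 each). Never ripe had 1.35 ± 0.0522 in LTMH and 1.74 ± 0.0684 in CT, and 35S::asCCD7 had 1.12 ± 0.0833 in LTMH and 1.47 ± 0.186 in CT. All 22 libraries of the other lines lay at 0.825 or above and all 7 WT libraries at 0.212 or below. This held in 35S::nahG CT too, in which the level of MPK3 itself was not shown to differ from WT. There the higher ratio went with less Solyc02g086920, at 20.1 ± 16.2 CPM, against 115.0 ± 13.1 CPM in WT CT. The other 4 genes of this group were, like Solyc02g086920, picked from these libraries for deviating with MPK3, so their ratios are not independent of one another. With them too the ratio was lowest in WT at each temperature, for example 4.06 ± 0.147 in 35S::nahG CT against 0.494 ± 0.0688 in WT CT for Solyc06g066680. That gene too was low in 35S::nahG CT, at 4.73 ± 3.97 CPM, against 45.4 ± 8.27 CPM in WT CT.

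For MPK1 the highest r of levels were those of Solyc11g044900 (0.939), Solyc06g074850 (0.936) and Solyc10g076590 (0.926). Within groups they were those of Solyc06g054330 (0.798), Solyc03g061600 (0.779, annotated as a cell division cycle protein 27-like protein) and Solyc04g073990 (0.767, annotated as annexin D1-like). For MPK2 the highest were Solyc09g098130 (0.835), Solyc06g072800 (0.821) and Solyc10g055260 (0.803) for levels, and Solyc08g005390 (0.800), Solyc02g080440 (0.799) and Solyc02g070390 (0.775) within groups. No gene was shared between these lists and those of MPK3.

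Tapetum markers were read beside these results. Summed over 4 tapetum markers (TDF1, CYP703A2, CYP704B1 and WBC27, of the layer that nourishes the microspores), 35S::nahG had 5.53 to 7.06 CPM in LTMH, against 3986 to 6057 CPM in CT. All 4 markers were DEGs, lower in LTMH (beside 27.5% of all tested genes called as DEGs). In LTMH the sum was 5.53 to 7.06 CPM in 35S::nahG, 3.91 to 11.4 CPM in Never ripe and 3.33 to 161.2 CPM in 35S::asCCD7, against 4.18 to 165.9 CPM in WT. For 35S::nahG against WT in LTMH 3 of 4 markers were DEGs, all lower (beside 9.41% of all tested genes). For Never ripe and 35S::asCCD7 none was (beside 4.34% and 5.53%). The median log2 fold change of the 4 markers from WT in LTMH was −3.88 in 35S::nahG, −3.82 in Never ripe and −0.52 in 35S::asCCD7. The missing calls in Never ripe therefore do not show that it was unlike 35S::nahG. In CT the sum was 3986 to 6057 CPM in 35S::nahG, 43.1 to 1884 CPM in Never ripe and 1.51 to 215.0 CPM in 35S::asCCD7, against 173.8 to 1931 CPM in WT. Of the 4 markers, 3 were DEGs in 35S::nahG against WT in CT, all higher (beside 16.4% of all tested genes). In Never ripe 1 was, lower than in WT (beside 10.5%), and in 35S::asCCD7 0 were (beside 3.81%). CYP703A2 (2764 ± 554.6 CPM) and CYP704B1 (2131 ± 410.7 CPM) made up most of the sum in 35S::nahG CT. TDF1 was not among the higher markers there, at 1.01 ± 0.488 CPM, against 2.45 ± 1.66 CPM in WT CT. No marker was at 0 in all libraries of a group. Within groups the library with the least MPK3 also had the lowest tapetum sum in 4 of 8 groups (35S::nahG LTMH, Never ripe LTMH, 35S::asCCD7 CT and WT LTMH), and the library with the most MPK3 had the highest sum in 3 of 8 (Never ripe LTMH, Never ripe CT and WT CT). In 35S::nahG CT it was the other way round, since replicate 2 had the most MPK3 and the lowest sum and replicate 3 the least MPK3 and the highest sum. With only 3 or 4 libraries in a group, some such matches arise by chance, and they were not tested. The part of the tapetum in the MPK3 values was not tested, and in such whole anthers fewer cells of a type and less RNA per cell cannot be told apart.

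The antisense target itself was read as a check on the labels. CCD7 (Solyc01g090660) had 7.59 to 20.02 CPM in the 35S::asCCD7 libraries, against 0.516 to 1.80 CPM in WT. Library construction did not mark strand, so reads of the antisense transgene and of the gene cannot be told apart here. Neither the bacterial nahG nor the Never ripe mutation could be read from counts of tomato genes.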

How the data were processed

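Poly(A) RNA of 29 anther pools was sequenced. The authors aligned reads with HISAT2 2.0.5, assigned them to genes with featureCounts 1.5.0-p3 and deposited whole read counts per gene, without normalization. The authors also deposited FPKM values made from these counts and gene lengths. Their library factors were 0.872 to 1.10 times the count totals, and FPKM served here only to compare genes with one another. Reads were placed on the tomato genome with annotation ITAG3.2. The RefSeq table at hand is of another assembly without these identifiers, so no coordinates or sequences are printed.

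The test of counts used edgeR 4.0.16 (R 4.3.3): filterByExpr with a minimum count of 10 over 29 libraries in 8 groups, TMM scaling, and two-sided glmQLFit and glmQLFTest, each comparison on its own groups, with Benjamini-Hochberg adjustment over 21637 genes. An SE is the log2 fold change divided by the root of its F value. The scripts were tested on simulated data. Identical libraries were looked for in 39 within-group pairs, and 0 were found. Replicate numbers are shared between groups. Among comparisons with 3 or more same-numbered pairs, every pair deviated together (r over 0.1) only for 35S::asCCD7 against WT in CT (r at least 0.137 in 4 pairs), and there the fit with a replicate block changed no call of a member. Never ripe against WT in LTMH had r of 0.161 and 0.529 in its 2 pairs, too few to take the numbers as pairing.

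Named genes were the 3 kinases, the DEGs of the relay list, the genes of most similar pattern, CCD7 and the tapetum markers. The members and lists were chosen with earlier results of these data known. The lists of phosphatases, ERECTA-type receptors and WRKY factors and the stamen, pollen and carpel markers were not used, since the sources used here do not annotate these identifiers. Alternatives were DESeq2 1.42.0, RLE scaling, other filters, one fit over all groups, a replicate block, limma 3.58.1 on log2(FPKM + 1) and log2(FPKM + 0.1), and each library left out. 1167 of the 35092 identifiers are not Solyc numbers.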

Additional observations from a re-analysis of the deposited data

Results flagged for a closer look

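MPK3 in 35S::nahG CT replicate 2 (41.37 CPM) lay far from the other 3 libraries of its group, with a gap of 0.892 of the group's range. MPK2 in 35S::asCCD7 CT replicate 1 (24.51 CPM) lay far below the others of its group, with a gap of 0.886 of the range. In all, 25 sets of 4 libraries were examined this way (the 3 kinases, Solyc08g014425 and Solyc03g097920 in each of the 5 groups of 4), and chance alone marks about 1 in 20.

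The LTMH response of MPK3 in 35S::nahG differed from that of WT by 2.624 on the log2 scale (edgeR adjusted p = 0.00609). It rose in LTMH in 35S::nahG and fell in WT. The LTMH response of Solyc03g097920 in Never ripe differed from that of WT by −2.483 (edgeR adjusted p = 0.00172).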

How the results depend on the processing

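The LTMH response of MPK3 in 35S::nahG, its difference from WT, and the higher MPK3 in 35S::nahG LTMH, Never ripe CT and 35S::asCCD7 CT than in WT passed in all alternatives, as did the fall of MPK1 in LTMH in 35S::nahG and WT. Some of the other log2 fold changes crossed the threshold or changed sign, and the cause was not tested. The rest kept their sign and stayed on the same side of the threshold, for example MPK2 in LTMH in WT and 35S::nahG. Replicates share numbers without a stated link, and outside 35S::asCCD7 against WT in CT no comparison with 3 or more same-numbered pairs had all of them deviate together. Both pairs of Never ripe against WT in LTMH did (r = 0.161 and 0.529). With a replicate block, calls were lost for MPK3 in Never ripe against WT in LTMH (2.36, adjusted p = 0.1443), for MPK1 in LTMH in Never ripe (−0.37) and 35S::asCCD7 (−0.28), for MPK2 in LTMH in Never ripe (−0.27), and for MPK2 in 35S::nahG against WT in CT (−0.25), while MPK1 in 35S::nahG against WT in CT passed (0.25). The block also reversed MPK3 in 35S::nahG against Never ripe in LTMH (0.31) and the MPK1 response difference of Never ripe (−0.0075).

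One fit over all 8 groups lost the MPK3 fall in WT (−0.65), and called MPK3 (−1.08) and MPK2 (−0.24) in LTMH in 35S::asCCD7 and MPK1 in 35S::nahG against WT in CT (0.24). DESeq2 called MPK3 (−1.10) and MPK2 (−0.24) in LTMH in 35S::asCCD7. limma lost MPK3 in Never ripe against WT in LTMH on log2(FPKM + 1) (2.39) and log2(FPKM + 0.1) (2.50). MPK1 in 35S::asCCD7 against WT in LTMH, near 0 throughout, changed sign with DESeq2 (−0.0049), no filter (−0.0068), RLE (−0.0048), the fit over all groups (−0.013) and limma (−0.0059 and −0.0062).

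With single libraries left out, the LTMH change in Never ripe ran from −1.16 to −0.35 for MPK3, −0.42 to −0.29 for MPK1 and −0.36 to −0.23 for MPK2, and in 35S::asCCD7 from −1.30 to −0.86 for MPK3 and −0.32 to −0.25 for MPK1. Against WT in LTMH, MPK3 ran from 2.41 to 3.235 in Never ripe and 2.07 to 2.49 in 35S::asCCD7, MPK2 from −0.14 to 0.013 in Never ripe, and MPK1 from −0.022 to 0.034 in 35S::nahG and −0.019 to 0.042 in 35S::asCCD7. Against WT in CT, MPK3 ran from −0.96 to 0.0044, MPK1 from 0.19 to 0.29 and MPK2 from −0.29 to −0.18 in 35S::nahG, and MPK1 from −0.066 to 0.065 in Never ripe. Within LTMH, MPK3 in 35S::nahG ran from −0.85 to −0.033 against Never ripe and −0.10 to 0.32 against 35S::asCCD7, and MPK1 from −0.023 to 0.047 against 35S::asCCD7. The MPK3 response difference of Never ripe ran from −0.52 to 0.30. Where an arm kept 2 libraries the fit pooled the spread.

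The number of DEGs over all genes moved by more than 1.5 times in some fits. It was 1824 in Never ripe LTMH against CT (688 with the block, 1189 to 1875 with libraries left out), 1551 in 35S::asCCD7 (818 with the block, 2714 in one fit, 746 to 1921 with libraries left out), 2037 for 35S::nahG against WT in LTMH (1281 with limma), 938 for Never ripe (90 with the block, 295 to 1498 with libraries left out) and 1196 for 35S::asCCD7 (691 with the block, 1864 with DESeq2, 2260 in one fit, 339 to 2085 with libraries left out). In CT it was 2280 for Never ripe (1402 with limma) and 824 for 35S::asCCD7 (534 with limma, 1251 with DESeq2, 1297 in one fit, 507 to 937 with libraries left out). Within LTMH it was 178 for 35S::nahG against Never ripe (0 with the block, 450 with DESeq2, 361 in one fit, 79 to 885 with libraries left out) and 231 against 35S::asCCD7 (142 with the block, 581 with DESeq2, 812 in one fit, 129 to 705 with libraries left out). The response of 35S::asCCD7 differed from WT for 69 genes (11 with the block, 637 with DESeq2, 675 in one fit, 4 to 977 with libraries left out).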
